A study of Homo sapiens with 29 samples.

Results

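The CEACAM genes encode cell-surface glycoproteins of the immunoglobulin superfamily, and the 5 of them described here, CEACAM6, CEACAM5, CEACAM7, CEACAM1 and CEACAM19, were chosen from the 35579 genes of the series on the gene TPM of 29 RNA libraries. CEACAM6 was chosen for its even rise when AF154 was added to erlotinib, so that rise is described and not tested. TPM is a transcript level scaled for transcript length and to one library total, and since it does not tell how many reads were counted, the sequencing depth is unknown. Of the 5 genes, 3 averaged 1 TPM or more and could be tested with the 14111 genes that passed this filter, while CEACAM5 and CEACAM7 did not pass it.

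All libraries came from PC9, an established EGFR-mutant lung adenocarcinoma line that is sensitive to erlotinib, an inhibitor of the EGFR kinase. The 10 lines were the parental cells (PAR), a CRISPR-Cas9 knockout of AXL derived from them (KO), and 8 lines of KO cells that received an AXL gene by lentivirus, either wild-type (WT), kinase-dead (KD) or with 1 tyrosine replaced by phenylalanine (Y634F, Y643F, Y698F, Y726F, Y750F and Y821F). Cells were left untreated (10 libraries), kept with 1 μM erlotinib (E, 10 libraries) or kept with the same dose together with the AXL-activating antibody AF154 at 300 ng/mL (EA, 9 libraries), for 24 h, with 1 library for each line and treatment. The combination of KO and EA was not analysed here. The transduced lines were sorted populations, not single clones, and both their knockout background and their vector are shared, so PAR differs from them in more than the receptor. The paper reports that each transduced line also kept some cells without AXL. It further reports less AXL activation in WT and the tyrosine mutants than in PAR. Treatments were compared over the lines. The p-values of the fitted models reflect how unevenly the treatments acted over the lines, including the unevenness of EA against E.

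CEACAM6 and CEACAM5, the latter known as carcinoembryonic antigen, are held at the outer surface of epithelial cells by a lipid anchor, as is CEACAM7, and CEACAM5 and CEACAM6 bind themselves and each other between cells. CEACAM1 crosses the membrane and is made with a long cytoplasmic tail, which carries inhibitory tyrosine motifs, or with a short one that lacks them. CEACAM19 also crosses the membrane and is less studied. CEACAM5 and CEACAM6 are studied as tumour antigens of lung and colon adenocarcinoma.

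The genes lie on chromosome 19 in GENCODE release 29 (GRCh38), on the same chromosome as AXL. CEACAM7 (ENSG00000007306) spans 41673307 to 41706976 on the minus strand, CEACAM5 (ENSG00000105388) 41708585 to 41729798 on the plus strand, and CEACAM6 (ENSG00000086548) 41750977 to 41772208 on the plus strand. CEACAM1 (ENSG00000079385) spans 42507304 to 42561234 on the minus strand and CEACAM19 (ENSG00000186567) 44662278 to 44684359 on the plus strand. The start of CEACAM6 lies 489 kb beyond the end of AXL.

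CEACAM5 and CEACAM6 are near relatives, and the bases before their RefSeq starts are shown because the files assign these genes very different levels. Both are RefSeq sequence of GRCh38.p14 on the plus strand, from 250 bases before the RefSeq start, at chr19:41708376-41708584 for CEACAM5 and chr19:41755280-41755420 for CEACAM6. The first ends before the annotated CEACAM5 gene and the second before the first exon of CEACAM6-201, the main transcript. The minor transcript CEACAM6-202 starts upstream, at 41750977, so the CEACAM6 stretch lies inside the annotated gene, in an intron of that transcript. Capitals mark the 5 runs of at least 8 identical bases in the local alignment of the 2 stretches, counted over its 24 equally good forms.
CEACAM5: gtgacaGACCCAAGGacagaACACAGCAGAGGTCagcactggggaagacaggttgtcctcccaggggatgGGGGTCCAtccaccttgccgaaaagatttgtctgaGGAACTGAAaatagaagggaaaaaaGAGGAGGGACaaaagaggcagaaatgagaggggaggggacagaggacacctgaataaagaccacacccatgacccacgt
CEACAM6: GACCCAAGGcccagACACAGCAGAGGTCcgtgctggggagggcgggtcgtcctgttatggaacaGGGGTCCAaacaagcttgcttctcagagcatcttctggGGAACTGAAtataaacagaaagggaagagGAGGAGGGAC
Of 134 aligned bases, 100 were identical (74.6%), and no binding of any factor was measured here.

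AXL (ENSG00000167601) was examined first as a check of the labels. Its level in KO was 92.4 TPM untreated and 79.3 TPM with E. In the 27 other libraries it lay between 217 TPM, in untreated WT, and 852 TPM, in Y750F with E. KO therefore had the lowest AXL level of all lines, and its transcript was still present.

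CEACAM6 was the most abundant of the 5 genes. Untreated, it stood at 159 TPM in KO, 121 in KD, 118 in WT, 115 in Y821F, 103 in Y643F, 82.1 in Y726F, 81.5 in Y698F, 79.0 in Y634F, 75.4 in PAR and 58.3 in Y750F. With E, it stood at 28.5 TPM in PAR, 16.3 in Y643F, 15.9 in KO, 12.8 in KD, 12.5 in WT, 10.2 in Y821F, 9.93 in Y634F, 8.62 in Y726F, 8.18 in Y698F and 5.88 in Y750F. With EA, it stood at 40.5 TPM in PAR, 23.6 in Y643F, 18.6 in WT, 14.0 in Y821F, 13.5 in Y634F, 12.4 in KD, 11.6 in Y726F, 10.9 in Y698F and 7.73 in Y750F. The lowest untreated library lay above the highest library with erlotinib, so the groups did not overlap, a pattern shown in this direction by 13.9% of the genes tested. The means were 99.3 ± 29.7 TPM untreated (SD, n = 10), 12.9 ± 6.4 with E (SD, n = 10) and 17.0 ± 9.95 with EA (SD, n = 9).

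The first question was how erlotinib changed each gene. It was answered with the mean of E and EA against untreated in the 9 lines that had all 3 treatments. The size of this contrast does not use the difference between EA and E, but its standard error and p-value do. Both come from a residual that includes the unevenness of that difference over the lines, and CEACAM6 was chosen for its evenness. CEACAM6 fell by 2.69 on the log2(TPM + 1) scale (SE 0.140, adjusted p 3.62e-13 by limma with Benjamini-Hochberg adjustment). It was lower in 9 of 9 lines, with an SD of 0.64 between their changes. E alone against untreated gave a change of -2.91 (adjusted p 1.20e-09, limma, 10 lines). This comparison has no EA libraries, but its E libraries entered the choice of CEACAM6, so it is not free of that choice. The fall of 2.69 was the 16th largest among the 14111 genes. Of those genes 36.6% were called lower, and 36.6% higher, so a call by itself was common. The median change of all genes was 0.012 on the same scale.

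The fall of CEACAM6 was shallower in PAR than in the other lines. In PAR, the untreated level was 2.65 times that with E. Among the other 9 lines this ratio ran from 6.36 in Y643F to 11.3 in Y821F, with a mean of 9.33 ± 1.40 (SD, n = 9). PAR had the second-lowest untreated level and the highest level with E and with EA. With 1 line against 9, an exact test cannot give a p below 0.1, so PAR is described and not tested. The fall without PAR was 2.88 on the log2 scale.

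**Figure D1:**
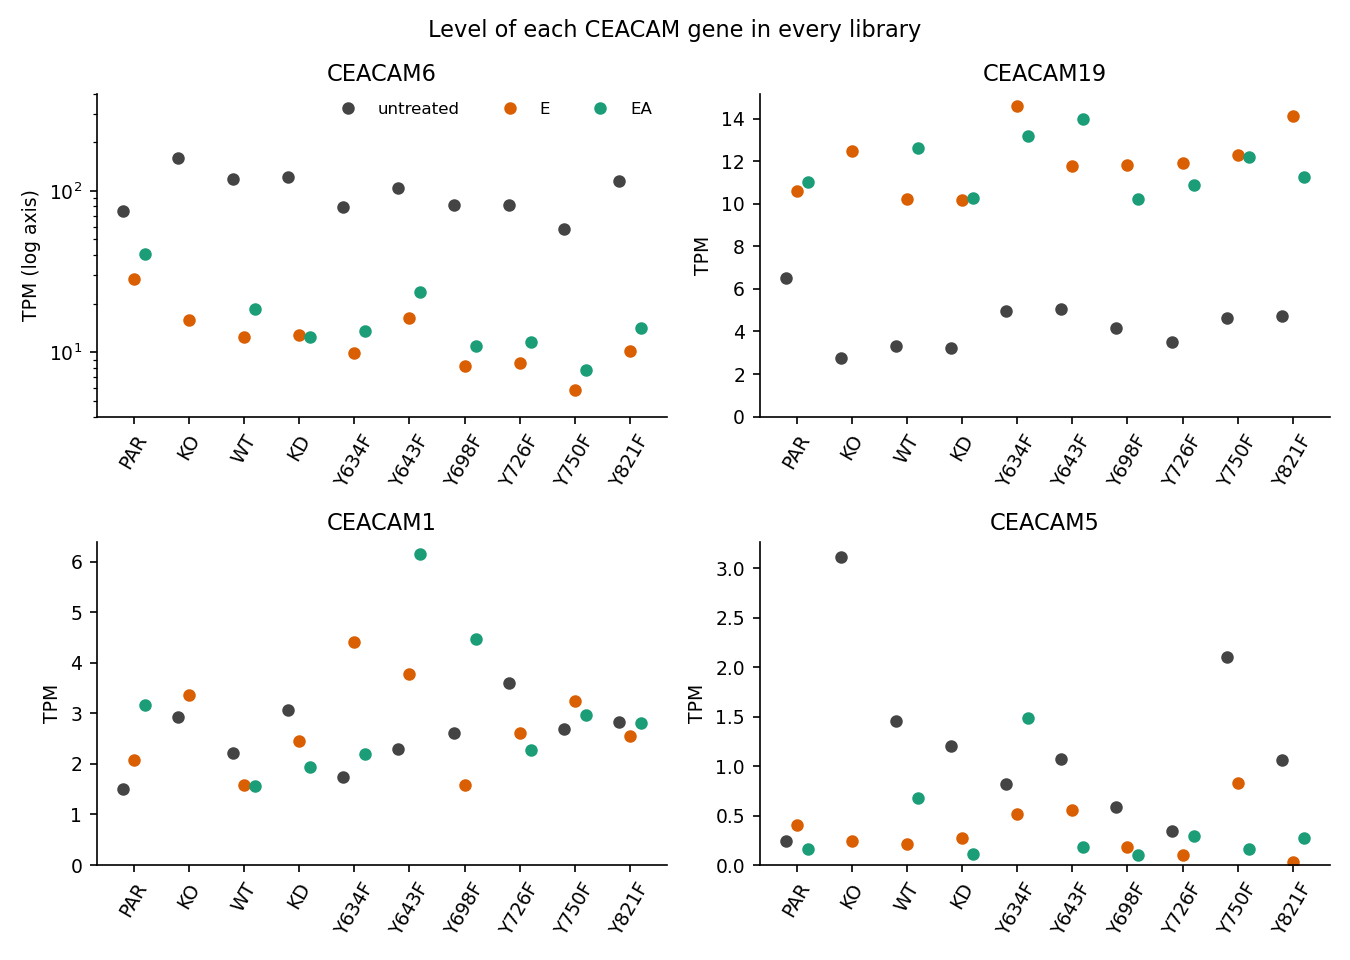
TPM of 4 CEACAM genes (y axis, log axis for CEACAM6) in each of the 10 lines (x axis), 1 point per library, untreated in grey, E in orange and EA in green. The CEACAM6 points with erlotinib all lie below the untreated ones and those of CEACAM19 all above, while the CEACAM1 and CEACAM5 groups overlap.

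Across the 9 lines other than PAR, lines with more CEACAM6 untreated tended to have more with E, with exceptions such as Y643F, which had the highest level of the 9 with E and the fifth untreated. As a description over lines that share their knockout origin, Pearson's r of log2(TPM + 1) was 0.86 and Spearman's rho 0.78 (n = 9). Without KO and Y750F, the lines farthest from the median, r was 0.66 (n = 7). With PAR included r was 0.37 (n = 10).

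The lines differed in CEACAM6 once the treatment was taken into account (adjusted p 0.00485, limma moderated F test over all 29 libraries), a call made for 24.3% of the genes. The residual of this test also includes the unevenness of EA against E over the lines. CEACAM6 was chosen for an even difference there, so its p-values and standard errors in this test draw in part on that choice. From the highest fitted level to the lowest the order was PAR, KO, Y643F, WT, KD, Y821F, Y634F, Y726F, Y698F and Y750F. The fit assumes the same treatment change in every line, which PAR did not show. Its first place averages a low untreated level with the highest levels with E and EA. KO was fitted without an EA library. Neighbouring lines differed by between 0.050 and 0.45 on the log2 scale, with a standard error of 0.30 to 0.34 for such a gap. Only the gap from Y698F to Y750F was larger than its standard error. Each line was 1 stock of cells, so this test compares stocks over their dishes. With 1 line left out the adjusted p lay between 0.000203, without PAR, and 0.0475, without Y750F. Without PAR the number of genes called fell from 3422 to 584.

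When AF154 was added to erlotinib, CEACAM6 was higher in EA than in E in 8 of the 8 lines other than KD and KO, by the choice of the gene, and 3.05% of all genes tested showed this pattern. The ratio of EA to E was 1.5 in WT, 1.45 in Y643F, 1.42 in PAR, 1.38 in Y821F, 1.36 in Y634F, 1.34 in Y726F, 1.34 in Y698F and 1.32 in Y750F. The mean difference was 0.44 ± 0.07 on the log2(TPM + 1) scale (SD, n = 8), and 141 genes rose more on average. In the kinase-dead line, KD, the ratio was 0.973.

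The rise with AF154, for which CEACAM6 was chosen, was set against the fall with erlotinib, and its share depended on the scale. The level with E enters both differences. In TPM, the difference between EA and E was 25.7% of that between untreated and E in PAR, and in the 7 other lines it lay between 3.53% in Y750F and 8.37% in Y643F. In log2(TPM + 1) it was 36% in PAR and between 11.1% in Y750F and 19.6% in Y643F in the others. In KD it was -0.32% in TPM and -1.2% in log2(TPM + 1). The values of the transduced lines are averages over cells with and without AXL, so they are not per-cell responses. In no line did the level with EA reach the untreated one. AXL RNA, in contrast, was lower in EA than in E in each of the 8 lines other than KD and KO. The difference was -0.13 ± 0.08 on the log2 scale (SD, n = 8). In KD, AXL RNA was 0.028 higher. Ordered from the largest mean rise to the largest fall, AXL was in place 12305 of the 14111 genes. The share of all genes lower in all 8 lines is not given here.

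**Figure D2:**
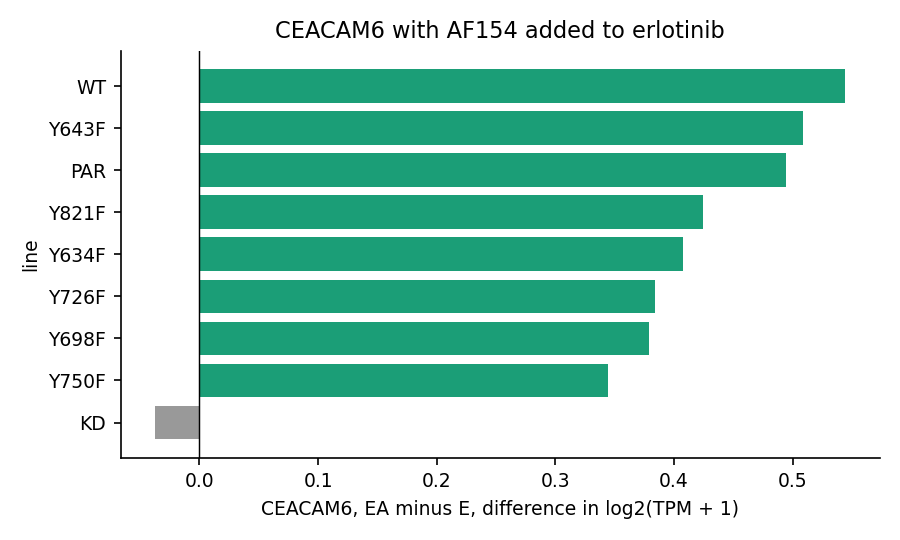
Difference of CEACAM6 between EA and E (x axis, log2(TPM + 1)) in each of the 9 lines that have both libraries (y axis), 1 value per bar. The 8 green bars run from 0.34 in Y750F to 0.54 in WT, and the grey bar of KD lies at -0.037.

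CEACAM6-201, a coding transcript of 2700 bases, held 99.5% of the CEACAM6 level. The submitters' processing notes name kallisto, which assigns reads by the short sequences they share with transcripts. Of the stretches of 31 bases in CEACAM6-201, 84.2% occur in no other GENCODE gene and 7.0% occur also in CEACAM5.

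CEACAM19 moved the other way. Untreated it stood at 6.50 TPM in PAR, 5.04 in Y643F, 4.95 in Y634F, 4.71 in Y821F, 4.61 in Y750F, 4.18 in Y698F, 3.52 in Y726F, 3.33 in WT, 3.24 in KD and 2.77 in KO. With E it lay between 10.2 TPM in KD and 14.6 TPM in Y634F (median 11.9), and with EA between 10.2 TPM in Y698F and 14.0 TPM in Y643F (median 11.3). Every library with erlotinib lay above every untreated one, which 9.46% of the genes tested did.

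CEACAM19 rose by 1.25 on the log2(TPM + 1) scale with erlotinib (SE 0.0714, adjusted p 1.57e-12 by limma) and was higher in 9 of 9 lines, the 462nd largest rise. In PAR, where the untreated level was highest, the level with E was 1.63 times the untreated one, and in KO, where it was lowest, 4.51 times. The other 8 lines lay between these. EA and E differed by -0.024 ± 0.20 on the log2 scale (SD, n = 8), higher in 3 lines and lower in 5. Differences between lines did not pass the threshold (adjusted p 0.245, limma moderated F test).

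**Figure D3:**
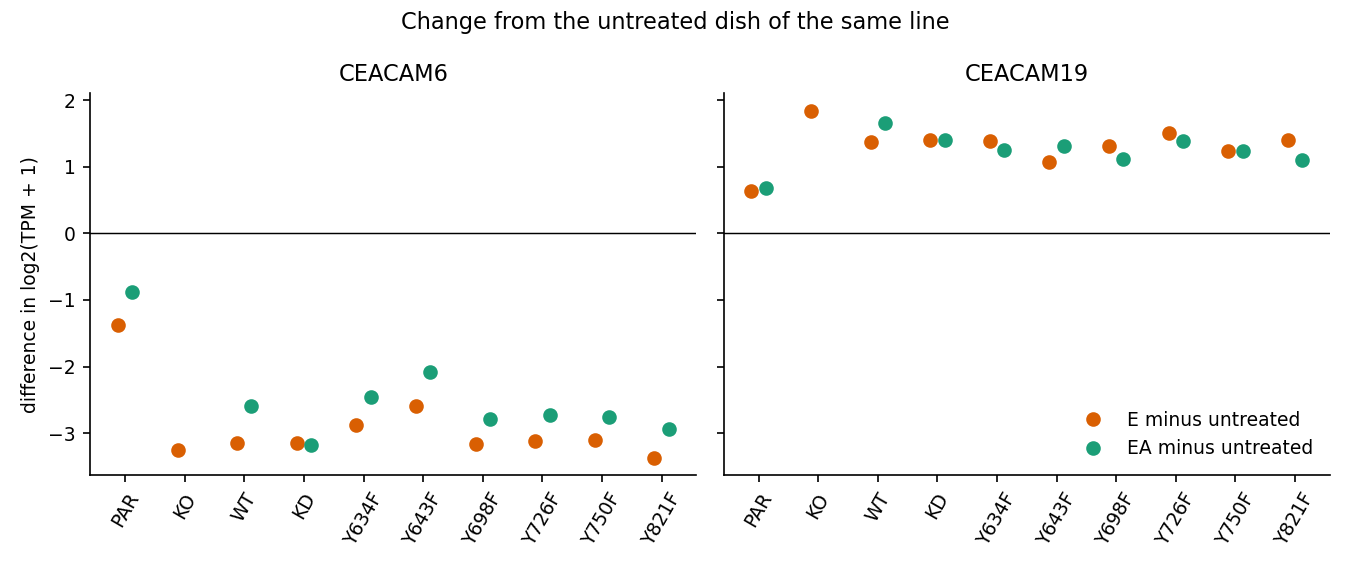
Difference in log2(TPM + 1) from the untreated dish of the same line (y axis) for CEACAM6 and CEACAM19 in the 10 lines (x axis), with E in orange and EA in green. PAR has the smallest change of both genes, -1.37 with E for CEACAM6 and 0.63 with E for CEACAM19.

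The CEACAM19 level was divided over several transcripts. CEACAM19-209, CEACAM19-201, CEACAM19-204 and CEACAM19-202 held 26.3%, 25.5%, 21.0% and 17.2% of it. CEACAM19-201, a coding transcript of 2249 bases, had a mean of 0.908 TPM untreated, 3.10 TPM with E and 3.16 TPM with EA. All its stretches of 31 bases (100%) were particular to the gene. CEACAM19-204, which GENCODE lists as a processed transcript with no coding sequence, had a mean of 0.950 TPM untreated and 2.51 TPM with E. The minor coding transcript CEACAM19-205 did not follow them, with 0.318 TPM untreated, 0.169 TPM with E and 0.442 TPM with EA.

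CEACAM1 was low in all libraries. Untreated it lay between 1.51 TPM in PAR and 3.6 TPM in Y726F (median 2.64), with E between 1.57 TPM in Y698F and 4.41 TPM in Y634F (median 2.58), and with EA between 1.57 TPM in WT and 6.16 TPM in Y643F (median 2.81). The 3 groups overlapped over most of their range. The change with erlotinib was 0.11 on the log2(TPM + 1) scale (SE 0.145, adjusted p 0.497 by limma), with 5 of 9 lines higher, and it was -0.015 after quantile normalization of the libraries. Lines did not differ past the threshold (adjusted p 0.507). With AF154, CEACAM1 was higher in 4 lines and lower in 4.

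Whether the tail of CEACAM1 changed was asked of its transcripts. The long tail needs an exon of 53 bases, exon 7 of the 9 in CEACAM1-201, at chr19:42511576-42511628 on the minus strand. It is shown here as the transcript reads it, from the GENCODE release 29 transcript.
CEACAM1 long-tail exon: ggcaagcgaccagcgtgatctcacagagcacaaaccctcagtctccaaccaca
The 3 coding transcripts that hold it had a summed mean of 0.247 TPM and were listed at 0 together in 11 of the 29 libraries. The 3 coding transcripts with the short tail had a summed mean of 1.34 TPM, between 0.373 and 2.60 TPM.

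The share of the long tail among these 6 transcripts was 12.2% ± 22.5 untreated (SD, n = 10), 19.1% ± 15.2 with E (SD, n = 10) and 16% ± 16.9 with EA (SD, n = 9). Within lines the treated libraries exceeded the untreated ones by a mean of 4.54 percentage points, with 7 lines higher and 2 lower (p = 0.598, two-sided exact sign-flip test, n = 9, smallest possible p 0.00391). Untreated WT, at 71.4%, stood far above the next untreated line, Y821F at 21.5%. With 1 line left out the mean difference moved most without WT, to 11.3 points (exact p = 0.0781, n = 8), and without Y750F, to 1.19 points (exact p = 0.906, n = 8), and it was 7.80 points without Y821F and 2.99 without Y634F. At levels this low a difference in tail was not detectable beyond the spread between lines.

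CEACAM5 was near the lower limit of the data. Untreated it stood at 3.11 TPM in KO, 2.10 in Y750F, 1.45 in WT, 1.21 in KD, 1.08 in Y643F, 1.06 in Y821F, 0.822 in Y634F, 0.584 in Y698F, 0.340 in Y726F and 0.242 in PAR. With E it lay between 0.0311 and 0.827 TPM (median 0.256), and with EA between 0.0994 and 1.48 TPM (median 0.179), so the groups overlapped. It was lower with E than untreated in 9 of 10 lines, PAR being the exception, and the mean of E and EA was lower than untreated in 7 of 9 lines and higher in PAR and Y634F.

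With a mean of 0.648 TPM, CEACAM5 did not pass the filter. Its mean change with erlotinib was -0.53 on the log2(TPM + 1) scale (n = 9 lines), and -1.32 with a pseudocount of 0.1 TPM. Fitted with no filter on low values, the change had an adjusted p of 0.00263 in limma. CEACAM5-206, an annotated transcript of 423 bases, held 36.3% of the level, and of its stretches of 31 bases 10.9% occur in no other gene and 23.9% occur in CEACAM6. The mean levels of CEACAM5 and CEACAM6 were both lower with erlotinib, and the part of shared sequence in this was not tested.

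CEACAM7, which is known from normal colon epithelium, was listed at 0 in 28 of the 29 libraries. In untreated Y698F it was listed at 0.0709 TPM. No fold change was computed.

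The other CEACAM genes were at or near 0. All 7 (CEACAM3, CEACAM4, CEACAM8, CEACAM16, CEACAM18, CEACAM20 and CEACAM21) were under 1 TPM in every library, and together they reached at most 1.12 TPM. CEACAM8, a surface marker of granulocytes, had the highest mean, 0.130 TPM, and CEACAM3, a phagocytic receptor of granulocytes, followed with 0.0874 TPM. CEACAM18 was the lowest at 0.00157 TPM.

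The pregnancy-specific glycoproteins, secreted relatives of the CEACAM proteins known mainly from the placenta, were measurable. Of 10 genes, 6 passed the filter and all 6 were called higher with erlotinib, beside 36.6% of all genes. PSG3, PSG6, PSG8 and PSG9 averaged between 0.217 and 0.526 TPM untreated and passed the filter only through the libraries with erlotinib, which favours genes that rise, so nothing is read from this count. PSG1 and PSG5 averaged 1.55 and 1.78 TPM untreated. PSG1 rose by 2.05 (SE 0.192, adjusted p 4.97e-09, limma) and was higher in 9 of 9 lines, with a mean of 7.46 TPM over all libraries. PSG5 rose by 2.04 (SE 0.222, adjusted p 4.84e-08, limma) and was higher in 8 of 9 lines. These genes are near-identical copies of each other, so the division of reads among them is uncertain.

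Among partners of CEACAM1 and regulators of its splicing, 13 of 14 genes could be tested, and 6 rose, 6 fell and 1 did not pass the threshold (median -0.066). These shares stand beside the 36.6% called in each direction over all genes. IRF1, a transcription factor of the interferon response, rose by 1.04 (SE 0.0595, adjusted p 1.60e-12, limma) and FLNA, the actin-binding filamin A, rose by 0.71. HNRNPL, a splicing regulator, fell by 0.54 and PTPN11, the phosphatase SHP2 that binds the long tail, fell by 0.50. PTPN6, which encodes the related phosphatase SHP1, is in the same list and rose by 0.50. The list therefore had no common direction.

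Among other surface antigens and adhesion molecules of epithelial cells, 19 of 20 genes could be tested, and 14 rose and 5 fell, where 36.6% of all genes did so in each direction. The median change was 0.75 against 0.012 for all genes. MUC4, a membrane mucin, rose by 2.69 (SE 0.136, adjusted p 2.15e-13, limma), and ICAM1, the adhesion receptor for leukocyte integrins, rose by 1.93 (SE 0.0596, adjusted p 1.04e-16, limma). CD44, the hyaluronan receptor, fell by 2.09 (SE 0.0381, adjusted p 2.16e-19, limma) and MCAM, an adhesion molecule of melanoma and endothelium, fell by 0.93. The fall of CEACAM6, at 2.69, was deeper than that of any tested gene in this list.

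**Figure D4:**
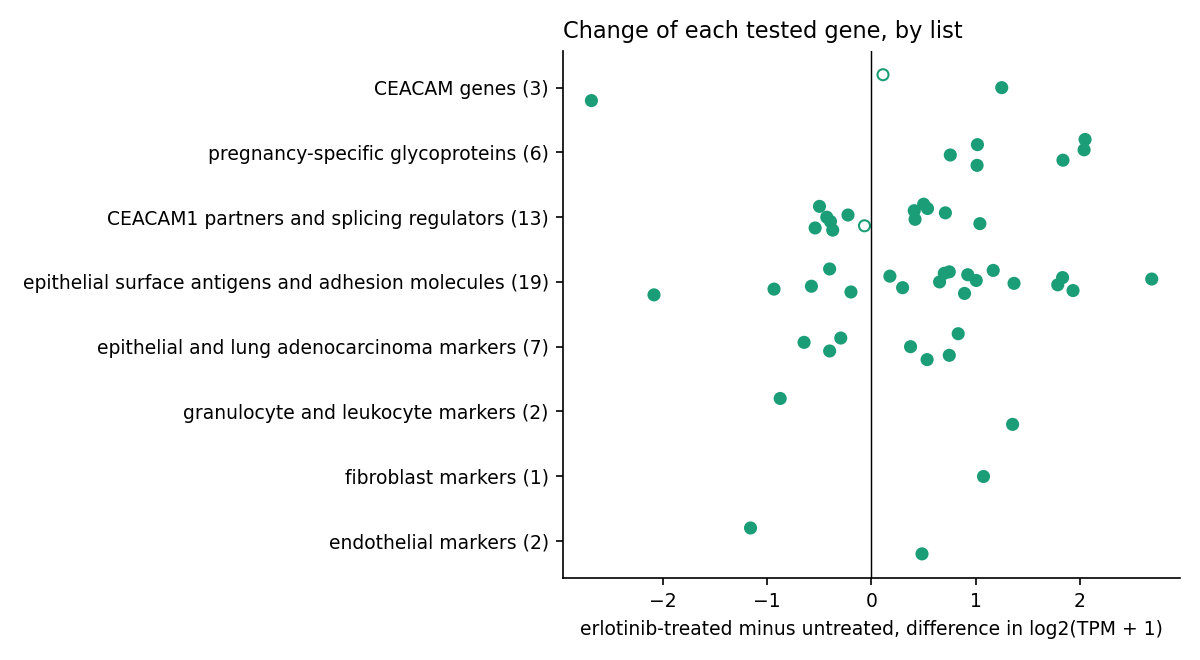
Change of each tested gene with erlotinib (x axis, treated minus untreated in log2(TPM + 1), mean of 9 lines) by gene list (y axis, number tested in brackets), with filled points past the adjusted threshold and open points not. CEACAM6 lies at -2.69, left of all points of the other lists. Of the 6 pregnancy-specific glycoproteins, 4 passed the filter only through their levels with erlotinib.

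The labelled cell type was checked against its markers. The keratins KRT7, KRT8, KRT18 and KRT19 had means of 5058, 1549, 1518 and 1405 TPM, and EPCAM and CDH1 342 and 118 TPM. NKX2-1, a lineage factor of lung adenocarcinoma, had a mean of 0.0509 TPM and SFTPB, a surfactant protein, 0.300 TPM, so these 2 lung markers were near 0. NAPSA, the aspartic protease napsin A of lung adenocarcinoma, was higher, with a mean of 2.0 TPM, and rose by 0.53 on the log2 scale (SE 0.150, adjusted p 0.00324, limma), in 8 of 9 lines. Of the 9 genes of this list 7 were tested, and 4 rose, led by KRT7 (0.83) and CDH1 (0.75), and 3 fell, led by KRT18 (-0.65) and EPCAM (-0.40), on the log2 scale, with 36.6% of all genes called each way. The summed level of the list lay between 8158 and 11184 TPM.

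Markers of other cells were low apart from ITGAM and COL1A1, which had means of 25.3 and 42.6 TPM. Of 8 granulocyte and leukocyte markers S100A8 was listed at 0 in every library, and MPO and ELANE, the defining granule enzymes, did not exceed 0.0396 and 0.0520 TPM. The summed level of this list was 11.7 to 48.1 TPM, and it was led by ITGAM, with a mean of 25.3 TPM, which rose by 1.35 on the log2 scale while S100A9 fell (-0.87). The 5 fibroblast markers summed to between 16.2 and 72.9 TPM, nearly all of it COL1A1, which rose by 1.07, while LUM and COL1A2 had means of 0.0174 and 0.101 TPM. The 4 endothelial markers summed to at most 10.2 TPM, led by PECAM1, which fell by 1.16, while CDH5, called higher by 0.49, passed the filter only through the libraries with erlotinib (0.730 TPM untreated, 1.47 TPM with E), and KDR had a mean of 0.0551 TPM.

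The genes whose levels followed CEACAM6 most closely over the 29 libraries were HES1, a transcription factor of the Notch pathway (r = 0.97), CRABP2, a retinoic acid binding protein (r = 0.97), CNBP, a nucleic acid binding protein (r = 0.96), TXNDC5, a protein disulfide isomerase (r = 0.96), and LAMA3, a laminin chain (r = 0.96). These are Pearson correlations of log2(TPM + 1), and the points share lines and treatments. In all, 434 genes had an r of at least 0.9 with CEACAM6. The fall with erlotinib was shallower in these 5 genes than in CEACAM6, from 0.54 in CNBP to 1.06 in CRABP2. With AF154, CNBP and LAMA3 were higher in 8 of 8 lines, CRABP2 and TXNDC5 in 7, and HES1 in 5, while 3.05% of all genes tested were higher in all 8. The libraries with E and EA entered the correlations, so these counts are not independent of the choice of CEACAM6.

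For CEACAM19 the nearest genes were SLC31A2, a copper transporter, ANXA8, an annexin with near-identical copies, and IL32, a cytokine, each with r = 0.97. CEACAM1 had no close match, and SAMD3 (r = 0.68), VTN, which encodes vitronectin (r = 0.59), and SYT7, a synaptotagmin (r = 0.59), came nearest. Between the members themselves, r was -0.91 for CEACAM6 with CEACAM19, 0.62 for CEACAM6 with CEACAM5 and -0.075 for CEACAM6 with CEACAM1 (n = 29 libraries).

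The genes around CEACAM6 changed less than it did. From AXL to CEACAM8, 20 genes with CEACAM6 had a mean of at least 10 TPM. With erlotinib 7 of the other 19 were called higher and 7 lower, where 36.6% of all genes tested were called in each direction. EXOSC5, an exosome subunit, had the next largest fall (-0.87), and BCKDHA, of branched-chain amino acid breakdown, the largest rise (0.82). RPS19, the nearest of them past CEACAM6, changed by -0.075 (adjusted p 0.0700, limma).

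The level in PAR relative to the mean of the other lines was averaged over the 3 treatments for the same 20 genes. It ran from -0.80 in CNFN and -0.55 in AXL to 0.83 in CEACAM6 on the log2 scale, with a median of 0.16 against -0.046 over all genes tested. For CEACAM6 the value was -0.37 untreated, 1.34 with E and 1.53 with EA. The higher level in PAR was therefore present with erlotinib and not in untreated cells.

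**Figure D5:**
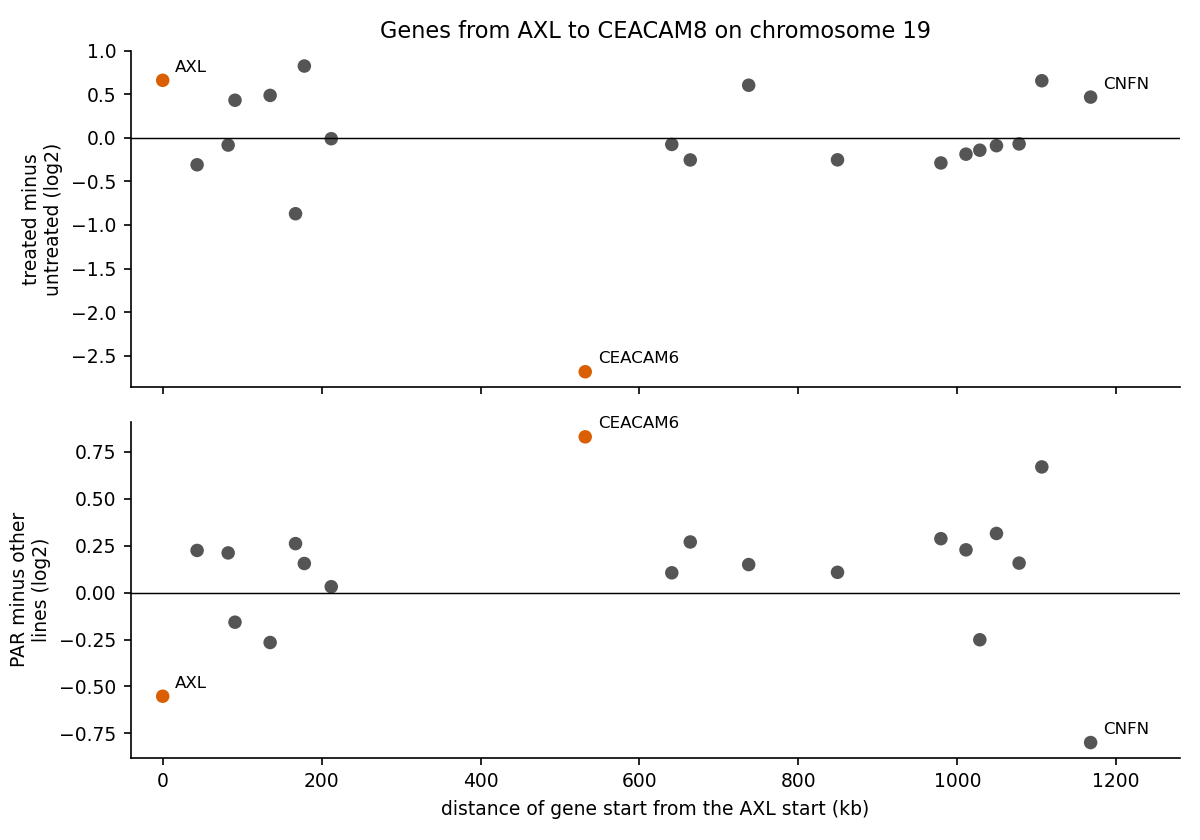
Genes from AXL to CEACAM8 with a mean of at least 10 TPM, by the distance of their start from the AXL start (x axis, kb), with the change with erlotinib above and the difference of PAR from the other lines below (y axes, log2(TPM + 1)). CEACAM6, 532 kb from AXL, is the lowest point above (-2.69) and the highest below (0.83).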

How the data were processed

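RNA of 29 libraries was measured, 1 per line and treatment. The authors deposited TPM per transcript, with sequencing and alignment done by a company. The submitters' processing notes name kallisto and GRCh38. Transcripts were matched by identifier to GENCODE release 29: 169797 of 188753 were found and summed to 35579 genes, with 97.0% to 97.4% of each library's total. The unit carries no depth, so counting error is unknown. No 2 libraries held the same values.

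Tests used log2(TPM + 1), a scale that understates changes of low genes, and genes that averaged 1 TPM or more, since a mean of at least 10 TPM would drop CEACAM1 and CEACAM19. The study's methods name a limit of 10 TPM without saying to which libraries it applies. Models were fitted with limma 3.58.1 in R 4.3.3 (lmFit, eBayes with trend, Benjamini-Hochberg adjustment over all 14111 genes, threshold 0.05). The line was the block of the treatment contrast, because the dishes of a line hold the same cells, and treatment was the covariate of the F test over lines. KO, which had no EA library here, did not enter the treatment contrast. The tail share was tested by exact sign flips. Transcripts with the exon of 53 bases were counted as long-tailed. Steps were tested on simulated data. Other tools were Python 3.11.15, pandas 2.3.3, scipy 1.17.1 and Biopython 1.88.

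The members and lists were chosen with earlier results of these data known. Genes named were the members, AXL, the other CEACAM genes, the 2 largest rises and falls past the threshold in each list, the 5 or 3 genes most correlated with a member, and the extremes among the neighbours, of which 1 is not reported here. PTPN6, PSG3, PSG6, PSG8, PSG9, KRT8, KRT19, NAPSA, the named cell markers below the filter, and EXOSC5, BCKDHA and RPS19 were named after their values were seen. The alternatives tried were other filters, a pseudocount of 0.1, median centring, quantile normalization, mitochondrial genes left out, coding transcripts only, no line block, E or EA alone, quality weights, the KD pair included, a log ratio for the tail share, and leaving out each line.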

Additional observations from a re-analysis of the deposited data

Results flagged for a closer look

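In PAR, the change of CEACAM6 between E and untreated was -1.37 on the log2 scale, far from the other 9 lines, which lay between -3.37 and -2.60. The change between the mean of E and EA and untreated was -1.13 in PAR and between -3.17 and -2.34 in the other 8 lines. CEACAM19 changed least in PAR as well, by 0.66 against 1.20 to 1.51 in the other 8 lines. Of 24 groups of values examined 3 held such a distant value, and chance gives about 1 in 20. The 3 are not independent, since the first pair shares its libraries and all come from PAR.

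The difference of CEACAM6 between EA and E was -0.037 on the log2 scale in KD, while it was positive in all 8 other lines with both libraries, from 0.34 to 0.54. KD had 1 library per treatment, the 8 lines were those in which the gene was chosen for a rise, and the difference between KD and the others was not tested.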

How the results depend on the processing

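Of 222 recomputed values for 15 results, 218 were counted as unchanged. Values with a test had to keep their side of the threshold and, for changes, their direction. Changes without a test had to move less than the SD between lines, whatever their sign. Leaving out 1 line cannot move a mean that far, so these leave-one-out values counted as unchanged by construction. Among them, the difference between EA and E ran from -0.062 to 0.134 in CEACAM5 and from -0.067 to 0.016 in CEACAM19. Its sign was therefore not kept in either gene. Counts of genes had to stay within a factor of 1.5. The change of CEACAM6 ranged from -2.91 to -2.49 on the log2 scale and the rise of CEACAM19 from 1.21 to 1.41, past the threshold under every alternative that tested them. For CEACAM6 these ends were E alone and EA alone against untreated, whose libraries entered the choice of the gene. CEACAM1 changed sign under quantile normalization (-0.015, adjusted p 0.934 by limma), where the cause was not tested. The change of CEACAM5 was -1.32 with a pseudocount of 0.1 TPM, which shrinks low values less. With a mean of at least 10 TPM required, fewer genes were tested and 3404 were called higher with erlotinib, in place of 5166. The number of genes that differed between lines was between 584 and 3538 with each line left out, the lowest without PAR, and the adjusted p of CEACAM6 in that test reached 0.0475 without Y750F. With 10 TPM required, CEACAM1 and CEACAM19 gave no value, and CEACAM7 had none under any setting. No paired analysis beyond the line block was possible because there was only 1 library for each line and treatment. A low level without known depth limits CEACAM1, CEACAM5 and CEACAM7 most.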

Other observations

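CEACAMP11, a pseudogene of the family that was named after its values were seen, had a mean of 1.09 TPM untreated, 3.82 TPM with E and 2.98 TPM with EA. It rose with erlotinib by 1.01 on the log2(TPM + 1) scale (SE 0.156, adjusted p 6.80e-06, limma) and was higher in 9 of 9 lines. Reads of a pseudogene can be shared with related genes, and its origin was not tested.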
